A study of Mus musculus with 12 samples.

Results

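The clustered histone genes are the 68 genes, of 24054 in each expression table, whose symbols begin with Hist1h, Hist2h, Hist3h or Hist4h. They were chosen by symbol alone and comprised 6 H1, 18 H2A, 19 H2B, 12 H3 and 13 H4 genes. The libraries were RNA-seq of sorted mouse fetal liver cells at embryonic day 13.5. Long-term haematopoietic stem cells (LT-HSC; LSK, CD150+, CD48-) and multipotent progenitors (MPP; LSK, CD150-, CD48+) were each taken from Setdb1 mutants and controls, with 3 libraries in each of the 4 groups. Setdb1 encodes a histone H3 lysine methyltransferase. All 6 mutant libraries carried Setdb1 p/p with vav-cre, a Cre transgene driven by Vav regulatory elements in blood cells. The control genotypes were mixed. Setdb1 +/p;+/+, without Cre, was the genotype of control 1 of the LT-HSC and controls 1 and 2 of the MPP. The remaining 3 controls, numbers 2 and 3 of the LT-HSC and number 3 of the MPP, were Setdb1 +/p;vav-cre. All controls thus carried 1 copy of the p allele, which the labels do not define. About 500 to 1000 LT-HSC and 20000 MPP were sorted per library, and the labels do not say whether the replicates came from separate embryos, so each p-value measures only the spread between these libraries.

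Core histones H2A, H2B, H3 and H4 form the nucleosome, and the linker histone H1 binds the DNA between nucleosomes. The clustered genes are the replication-dependent copies: most are transcribed in S phase, lack introns and make mRNAs that end in a conserved stem-loop bound by the stem-loop binding protein Slbp, in place of a poly(A) tail. Some of them, and the variants encoded outside the clusters, also make polyadenylated mRNAs in cells that are not dividing. The cDNA kit named in the labels primes from oligo(dT), so most RNA of this class is a poor template for it.

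The end of the mRNA was therefore examined first. The stem-loop was searched as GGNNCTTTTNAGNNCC, on the sense strand only, in 1 GENCODE M21 transcript per gene (GRCm38). It was found in 44 of the 68 members and in 0.128% of 21810 other protein-coding genes. No match says little for the rest, since 13 of the members have a transcript model that stops at the stop codon. In 41 of the 44, the RefSeq gene model (GRCm38.p6) ended within 10 bases after the stem-loop, so reads further downstream were outside that model. The following 30-base windows lie after the stop codon, with the stem-loop in capitals. They are shown because the 3 H2A genes with the highest levels carry a long adenine run just before the stem-loop, and the other windows are those of members described below.
Hist1h2ap: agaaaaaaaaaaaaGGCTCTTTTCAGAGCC
Hist1h2ao: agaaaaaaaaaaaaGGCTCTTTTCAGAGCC
Hist1h2ae: gtaaaaaaaacaaaGGCTCTTTTCAGAGCC
Hist1h4d: acccaaaaaccaaaGGCCCTTTTCAGGGCC
Hist1h1e: cccaacaacccaaaGGCTCTTTTCAGAGCC
Hist2h2ac: cacgaatccaaaaaGGCTCTTTTTAGAGCC
Hist3h2ba: gcccccaacccaaaGGCTCTTTTCAGAGCC
Hist1h3d: atttggaccccaaaGGCTCTTTTCAGAGCC
Hist2h4: cccccatccctaacGGCCCTTTTTAGGGCC

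The windows of Hist1h2ap (chr13:21833029-21833058, minus strand) and Hist1h2ao (chr13:21810884-21810913, plus strand) had the same letters, with 12 adenines in a row before the stem-loop. That of Hist1h2ae (chr13:23570668-23570697, minus strand) had a run of 8. Among the other 41 members with a match, the longest adenine run up to the end of the stem-loop was 7 bases, in Hist1h3c. On the TPM scale, which is per length, the 3 genes with a run of 8 or more had mean levels of 215, 302 and 2568 over the 12 libraries. The other 41 ranged from 0 to 487, with a median of 6.23. Spearman's rho between run length and mean TPM was 0.41 across the 44 members, as a description: these points share their libraries, the near copies among them share reads, and the run was noticed after the levels were known. Hist1h4d was second of all members in TPM (487) with a run of 5, and Hist1h3c was low (5.06) with its run of 7. The part of the adenine run in the measured level was not tested.

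**Figure D1:**
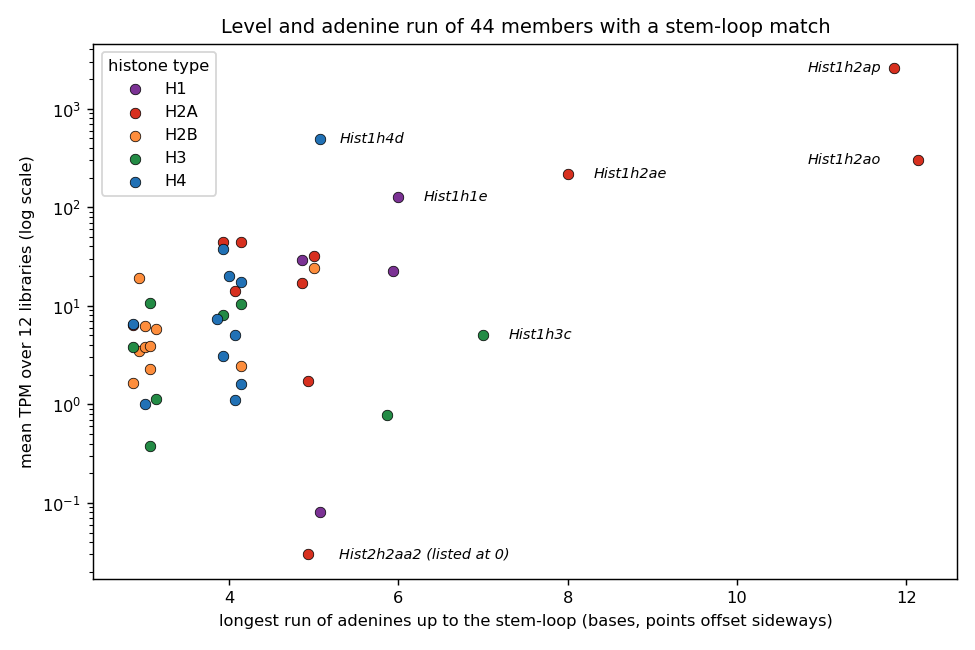
Mean TPM over 12 libraries (log scale) against the longest run of adenines up to the end of the stem-loop, for the 44 members with a match, coloured by histone type. The 3 members with a run of 8 or more bases are H2A genes at 215 to 2568 TPM, and the other 41 lie at 487 TPM or below.

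Clustered histone RNA was a small share of each library. The total expected count was 10119416 to 14113198 per library, and the members took 0.0643% to 0.124% of it. Only 8 members averaged 10 or more CPM (counts relative to the TMM-scaled library total) over the 12 libraries, 27 averaged 1 to under 10 and 33 less than 1. The median of the 68 mean levels was 1.11 CPM. Single genes are limited by shared sequence. Expected counts were fractional for 87% of the members' values above 0, against 11.6% for other genes, and in 33 of the 68 members over 50% of the 50-base words of the transcript also occurred in another gene. The expected-count method divides such reads among copies, so the values of near copies are estimates. Hist1h2bq and Hist1h2br had identical values in all libraries and count as 1 estimate. The counting is not stated to use strand.

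A single H2A gene dominated. Hist1h2ap (chr13:21833024-21833475) made up 45.5% to 53.5% of the members' summed CPM, and the 10 highest members made up 88.9% to 91.5%. Its level was 435, 372 and 404 CPM in the LT-HSC controls and 380, 286 and 359 in the LT-HSC mutants. It was 409, 581 and 675 in the MPP controls and 519, 476 and 599 in the MPP mutants. Mutant and control values overlapped in both cell types. Hist1h2ao held 0.139 to 0.174 times the CPM of Hist1h2ap in every library, and 93.1% of the 50-base words of Hist1h2ap occur in Hist1h2ao, so the division of reads between them is uncertain.

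Among the linker histones, Hist1h1b (59.1 CPM over the 12 libraries) and Hist1h1e (47.7) were the most abundant, followed by Hist1h1c (9.90). H2A was led by Hist1h2ap (458), Hist1h2ao (72.0) and Hist1h2ae (52.2). H2B was led by Hist1h2bc (36.8), Hist2h2be (15.8) and Hist3h2ba (4.47). The H3 genes were all low, led by Hist1h3d (2.25), Hist2h3b (2.05) and Hist1h3e (2.01). In H4, Hist1h4d (62.6) stood above Hist1h4i (5.59) and Hist1h4c (2.69). Per length, the order of the 5 highest genes was Hist1h2ap, Hist1h4d, Hist1h2ao, Hist1h2ae and Hist1h1b (2568, 487, 302, 215 and 151 TPM). The genes known as testis-type were at or near the detection limit. Hist1h2ba was at 0 in all 12 libraries, which allows up to 0.199 to 0.29 CPM per library (3 counts, counting error only). Hist1h1t had values above 0 in 3 of the 12 libraries, with at most 2 counts in any group, and Hist1h2aa was at 0 in 10 of 12.

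The members of each type were next summed per library. H3 transcripts summed to 9.62, 6.77 and 6.99 CPM in the LT-HSC controls and to 16.6, 17.3 and 20.1 in the MPP controls. H4 summed to 54.6, 50.1 and 49.6 CPM in the LT-HSC controls and to 82.9, 103 and 92.8 in the MPP controls. H1 summed to 108, 102 and 118 CPM in LT-HSC controls against 124, 145 and 159 in MPP controls. For these 3 sums all MPP controls lay above all LT-HSC controls. Among the 5 H1 genes tested singly, this held for 1, Hist1h1b, with means of 38.7 CPM in LT-HSC and 69.4 in MPP controls. Hist1h1e averaged 48.3 and 49.2 CPM and Hist1h1c 11.6 and 8.61, with overlap. The H2B sum did not follow. In the LT-HSC controls it came to 76.2, 77.2 and 77.1 CPM, within the range of the MPP controls (70.6, 85.9 and 79.5). Much of it was Hist1h2bc and Hist2h2be. Hist1h2bc averaged 39.6 CPM for LT-HSC against 40.4 for MPP controls, and Hist2h2be 22.0 against 16.7. Singly, 8 of the 10 H2B genes tested had log2 fold changes below 0, LT-HSC over MPP controls, and 2 above. Their median was -0.19, some were close to 0, and 1 was called lower.

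H2A summed to 596, 497 and 566 CPM in the LT-HSC controls and to 536, 781 and 911 in the MPP controls. MPP control 1 was the low library, and it lay within the LT-HSC range. The log2 ratio of the mean H2A sums, LT-HSC over MPP controls, was -0.42. It was -0.61 without MPP control 1 and -0.25 without MPP control 3, the library with the highest sum. Between mutants and controls the ranges of all 5 sums overlapped in LT-HSC. In MPP, H2B summed to 70.3, 62.1 and 61.5 CPM in the mutants, each below every control, although the highest mutant and the lowest control differed by little. The most abundant H2B genes, Hist1h2bc and Hist2h2be, both fell there, by log2 fold changes of -0.35 (not called) and -0.84. Of the 12 H2B genes tested in MPP, 7 lay below 0 and 5 above, so the lower sum does not describe every H2B gene. The sums were not tested, since they are scores over a chosen list.

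**Figure D2:**
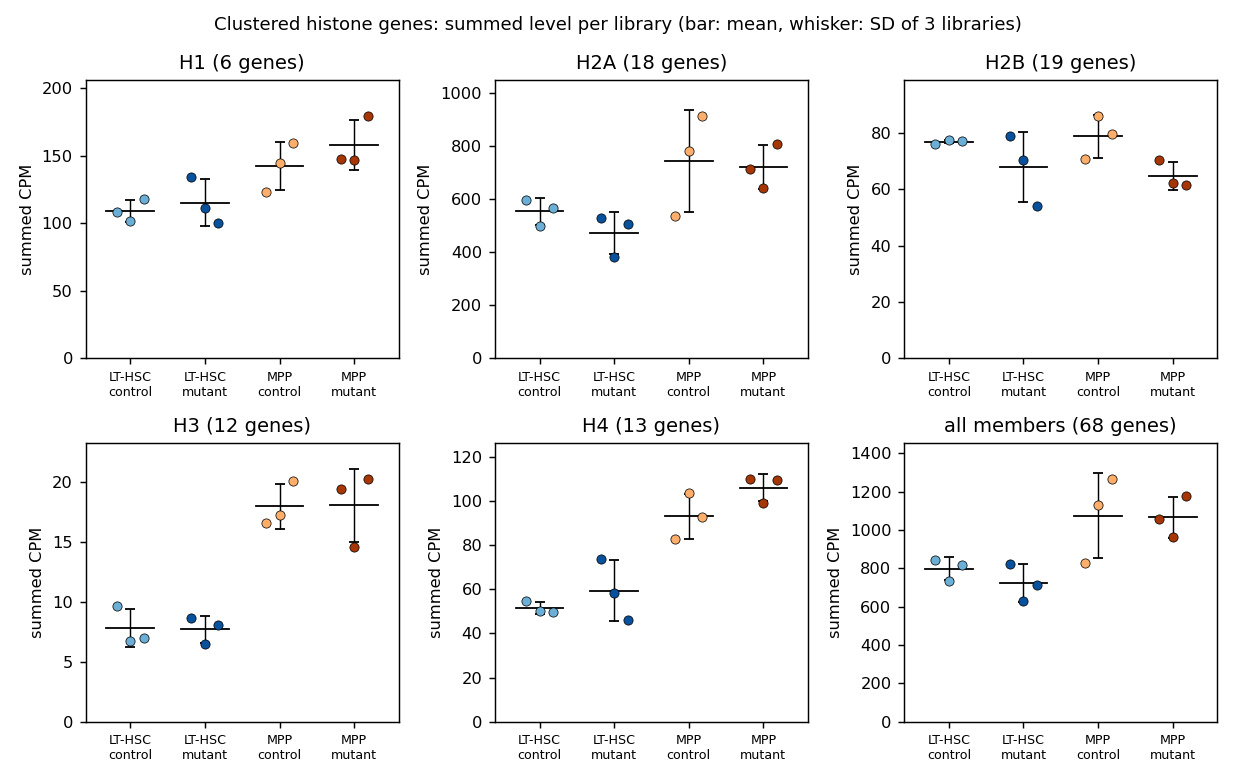
Summed CPM of the clustered histone genes by type and over all members, per library (points), with the mean (bar) and SD (whisker) of 3 libraries. H3 and H4 are higher in every MPP control than in any LT-HSC control, whereas control and mutant ranges overlap for every type in LT-HSC and for every type but H2B in MPP.

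In LT-HSC, no clustered histone gene passed the test between mutants and controls. With edgeR's quasi-likelihood test and Benjamini-Hochberg adjustment over 12847 genes, 0 of the 36 members tested had an adjusted p under 0.05, where 0.42% of all genes did. None of the 36 had an unadjusted p under 0.05, and DESeq2 also called 0. The median log2 fold change, mutant over control, was -0.09 for the 36 members and 0.03 for all genes tested. The 95% interval lay within 2-fold either way for 12 of the 36. For Hist1h2ap the log2 fold change was -0.20 (SE 0.12, 95% interval -0.48 to 0.08).

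The smallest adjusted p in LT-HSC belonged to Hist2h2be, an H2B gene on chromosome 3 (chr3:96221072-96223738) whose GENCODE transcript shares no 50-base word with another gene. That transcript had no match to the stem-loop pattern and 2192 bases after the stop codon. The deposited length of the gene was 2618 bases. Its level was 20.6, 22.8 and 22.6 CPM in the controls and 19.3, 15.9 and 10.3 in the mutants. All mutants lay below all controls. This held for 4 members tested, against 9.78% of all genes, but 2 of the 4 are Hist1h2bq and Hist1h2br with their shared estimate. All mutants lay above all controls for 0 of the members tested, against 6.55% of all genes. Outside the test, where levels were too low, they did so for Hist1h3h and Hist4h4. The log2 fold change of Hist2h2be was -0.50 (SE 0.24, edgeR adjusted p = 0.5735), which did not pass. It was -0.28 without LT-HSC mutant 3 and -0.70 without LT-HSC mutant 1.

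In MPP, 3 of the 46 members tested passed, against 35% of 12392 genes. Hist3h2ba rose, and Hist2h2be and Hist1h3d fell. Of the 8 members with a mean of 10 CPM or more, only Hist2h2be passed. The median log2 fold change was 0.07 for the members tested and -0.01 for all genes. An unadjusted p under 0.05 was found for 9 members. In 6 members all mutants lay above all controls and in 3 all lay below, where 25.4% and 25% of all genes did.

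Hist2h2be had the clearest difference. It was at 17.6, 15.1 and 17.4 CPM in the MPP controls and at 9.16, 9.76 and 9.27 in the mutants, so the groups were well apart. The fall was -0.84 on the log2 scale (SE 0.14, 95% interval -1.16 to -0.53, edgeR adjusted p = 0.001099). Its expected counts were whole numbers in all libraries, 617 counts over the controls and 318 over the mutants, so no reads were divided with another gene. In a fit over both cell types that kept only controls with vav-cre, which leaves MPP control 3 alone, the log2 fold change was -0.94 but the adjusted p was 0.1601.

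Hist3h2ba, an H2B gene on chromosome 11 (chr11:58948911-58949372), was at 2.28, 4.31 and 2.95 CPM in the MPP controls and at 5.30, 6.06 and 5.44 in the mutants. No mutant overlapped a control. The log2 fold change was 0.80 (SE 0.26, edgeR adjusted p = 0.03078). The call rested on single libraries: without MPP mutant 2, mutant 3, control 1 or control 3 the adjusted p was 0.0983, 0.07116, 0.06973 and 0.06506.

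Hist1h3d, an H3 gene (chr13:23575763-23576266), was at 3.98, 4.02 and 3.22 CPM in the MPP controls and at 2.16, 1.28 and 2.75 in the mutants. The mutants were lower without overlap, on 138.51 and 70.46 expected counts per group. The log2 fold change was -0.85 (SE 0.30, edgeR adjusted p = 0.04573), close to the threshold. It no longer passed without MPP mutant 1 (0.0744), mutant 2 (0.174), control 1 (0.09824), control 2 (0.1248) or control 3 (0.05081), nor in the DESeq2 test (0.09901).

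Among members that did not pass in MPP, Hist1h1b was at 73.8, 68.2 and 66.1 CPM in the controls and 77.8, 80.7 and 89.7 in the mutants. Its log2 fold change was 0.24 (SE 0.10, edgeR adjusted p = 0.07164). Without MPP control 1 it was 0.29 (0.02657). For Hist1h2ap the log2 fold change was -0.08 (95% interval -0.42 to 0.26), and for Hist1h4d 0.16 (-0.06 to 0.38). MPP control 3 had the highest member total (1263 CPM), and without it 5 members were called higher (Hist1h2ab, Hist1h2ai, Hist1h3b, Hist1h4c and Hist2h2ac) and 1 lower (Hist2h2be).

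**Figure D3:**
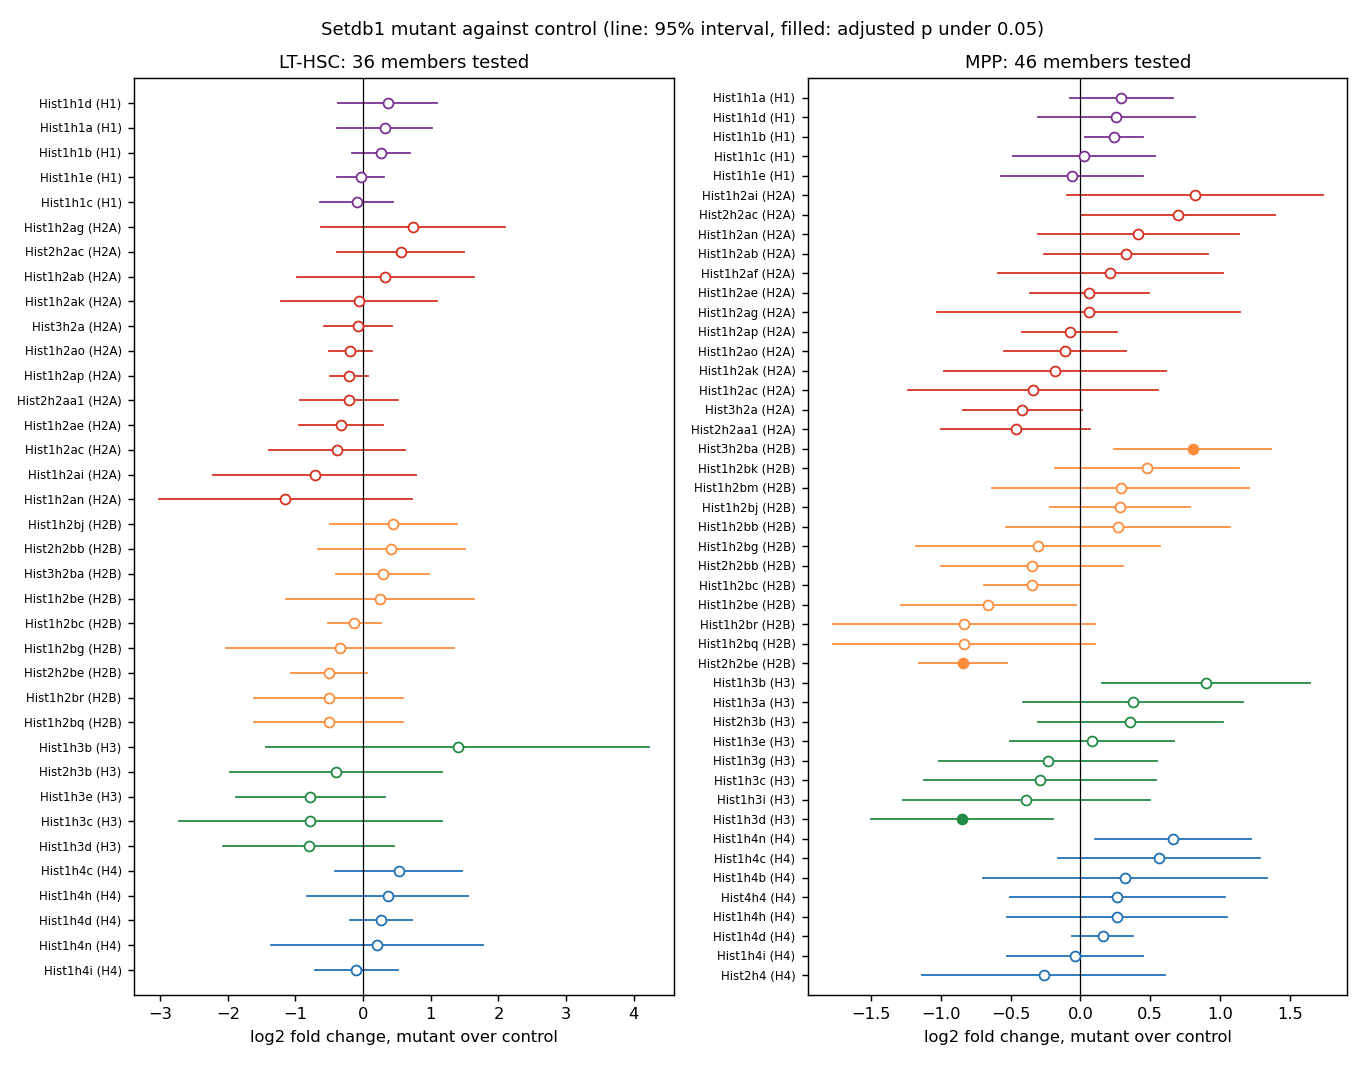
Log2 fold change, mutant over control, with its 95% interval, for the members tested in LT-HSC (left, 36) and MPP (right, 46), ordered by histone type. Filled points passed the test: none in LT-HSC, and Hist3h2ba, Hist2h2be and Hist1h3d in MPP.

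The genotype effects in the 2 cell types were compared directly. In the interaction term over all 12 libraries, 0 of 48 members tested passed, where 0.377% of 13249 genes did. None had an unadjusted p under 0.05, and DESeq2 called 0. For Hist2h2be the difference of the 2 log2 fold changes, LT-HSC minus MPP, was 0.28 (95% interval -0.33 to 0.89). For Hist3h2ba it was -0.58 (-1.41 to 0.26). An effect confined to MPP was therefore not shown for any member.

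Hist2h2be shares its promoter region with an H2A gene. H2A and H2B genes often lie head to head, and 12 such pairs were found with 163 to 280 bases between the start sites. Both genes were tested in 6 of them. In MPP, mutant over control, the pair folds had the same sign in 4 of 6, and in LT-HSC in 5 of 6. Between control LT-HSC and control MPP they had the same sign in 6 of 6, where 38 of all 42 members tested lay below 0. Hist1h2bq and Hist1h2br occur in 2 of these pairs with 1 shared estimate. Between the controls that estimate was -0.0025 (SE 0.40), and Hist1h2bc in another pair was at -0.02 (SE 0.14), so these signs are uncertain. Levels within a pair could be far apart. Per length, Hist1h2ap was 3197 times as high as Hist1h2br, and Hist1h2ao 375 times as high as Hist1h2bq, both against that shared estimate. These ratios depend on the deposited lengths, 2121 bases for Hist1h2bq and Hist1h2br against 452 for Hist1h2ap and 552 for Hist1h2ao. In CPM, Hist1h2ap and Hist1h2ao averaged 458 and 72.0 against 0.945 for the shared estimate. Per length, Hist1h2ae was 36.7 times as high as Hist1h2bg, and Hist1h2bc 17.3 times as high as Hist1h2ac, but Hist1h2ag and Hist1h2bj differed by 1.34 times.

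The partner of Hist2h2be is Hist2h2ac (chr3:96220413-96220880, minus strand). It was at 2.14, 5.32 and 6.29 CPM in the MPP controls and at 7.20, 7.07 and 8.05 in the mutants, all above the controls. Its log2 fold change was 0.70 (SE 0.32), with an edgeR adjusted p of 0.1077. The log2 fold changes of the 2 neighbours lay on opposite sides of 0 in MPP, and also in LT-HSC (0.55 for Hist2h2ac, -0.50 for Hist2h2be), where neither passed. Between the controls both lay above 0 (0.09 and 0.41). The difference between the 2 genes was not tested. The 191 bases between their start sites (chr3:96220881-96221071, minus strand, RefSeq GRCm38.p6) are printed because the 2 genes share them. The sequence runs from the side of Hist2h2be to that of Hist2h2ac, with capitals for TATAAA and for CCAAT in either orientation.
Hist2h2be to Hist2h2ac: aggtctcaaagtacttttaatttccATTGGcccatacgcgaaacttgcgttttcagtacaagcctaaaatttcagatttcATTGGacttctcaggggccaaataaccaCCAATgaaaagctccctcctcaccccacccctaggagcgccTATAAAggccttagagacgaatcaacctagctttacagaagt

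TATAAA occurred 1 time, 37 bases from the Hist2h2ac start and read in its direction. No TATAAA was found in the direction of Hist2h2be. CCAAT occurred 3 times, 1 time in the direction of Hist2h2ac and 2 times in that of Hist2h2be. The octamer ATTTGCAT, the element bound by Oct1 in H2B promoters, was not found in these letters. In promoter windows of 300 bases, searched on both strands, the octamer was in 7 of 17 H2B and 7 of 18 H2A windows and in none of the 28 H1, H3 and H4 windows, against 1.74% of 32851 windows of all genes. CCAAT was in all windows of H1, H2A, H2B and H3 genes but in 3 of 12 H4 windows, against 37.4% of all windows. TATAAA was in 55.6% of the members' windows and 13.6% of all. Paired genes share much of a window, so these counts are not independent. A match describes letters and not a site in use.

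**Figure D4:**
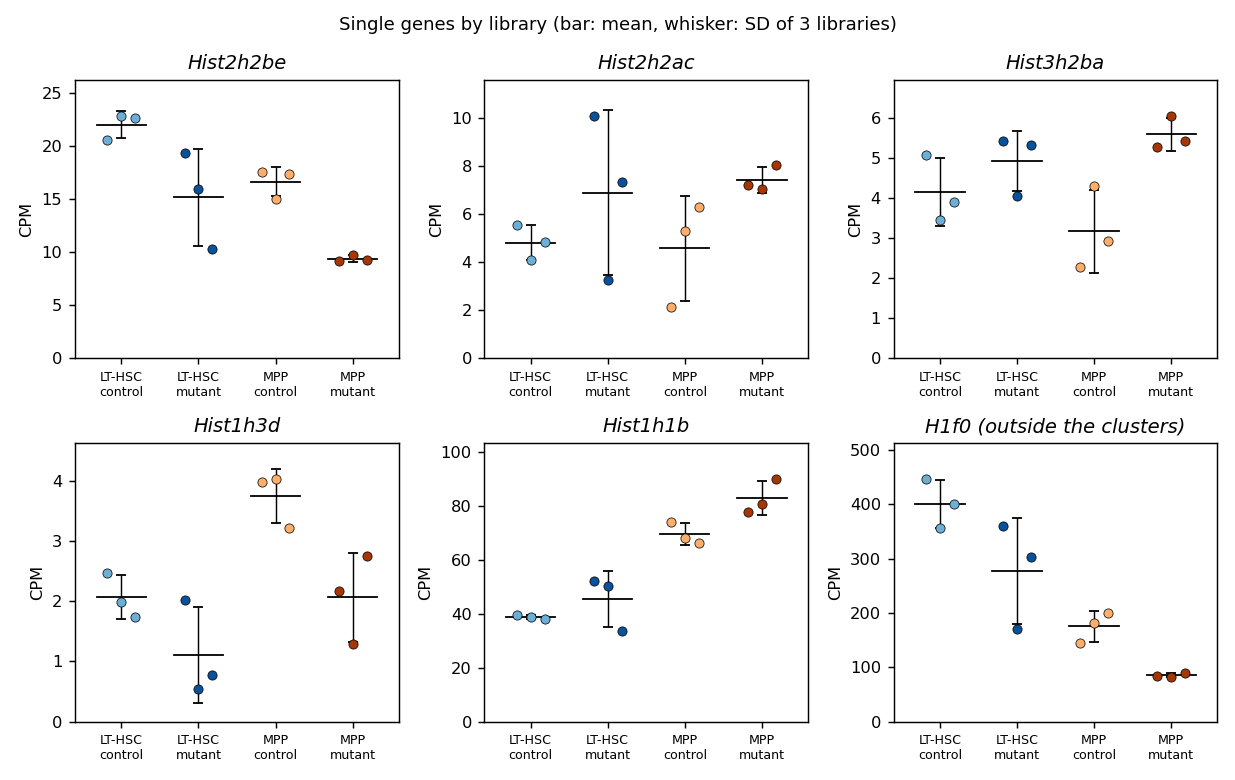
CPM by library (points) with the mean (bar) and SD (whisker) of 3 libraries, for 5 members and for H1f0, a linker histone gene outside the clusters. Hist2h2be and H1f0 are lower in all MPP mutants than in all MPP controls, and both have their highest mean in LT-HSC controls.

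Between the control cell types, 11 of the 42 members tested were called lower and 1 higher in LT-HSC than in MPP. The other 30 did not pass. The 12 calls are 28.6% of the members tested, where 38.5% of 12834 genes were called. By direction, 18% of all genes were called lower and 20.5% higher. The median log2 fold change was -0.49 for the members and 0.01 for all genes. Log2 fold changes were below 0 in 38 of the 42, including all 7 H3 and all 7 H4 genes tested. In 17 members all LT-HSC controls lay below all MPP controls, and in 1 above, where 24.8% and 26.3% of all genes did. The members tested are those above a low-count filter. In bulk RNA, fewer cells of a type and less RNA per cell cannot be told apart. Cell type also went with the number of cells sorted, and their parts cannot be told apart here.

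The best measured of these genes encode a linker histone and H4. Hist1h1b was at 39.6, 38.7 and 37.9 CPM in LT-HSC controls, well under the 3 MPP values given above. Its log2 fold change was -0.83 (SE 0.10, edgeR adjusted p = 0.0002141). Hist1h4d (chr13:23581568-23581969) had 44.2, 39.9 and 38.9 CPM in LT-HSC and 69.6, 84.1 and 73.7 in MPP, without overlap. Its log2 fold change was -0.88 (SE 0.11, edgeR adjusted p = 0.0002654). Both calls held in all 12 alternative analyses, none of which kept only controls with vav-cre. Cre was unevenly divided between the control cell types. Hist2h4 had the widest difference, 0.20, 0.37 and 0.15 CPM in LT-HSC against 1.25, 2.50 and 1.58 in MPP. The log2 fold change was -2.83 (SE 0.54, edgeR adjusted p = 0.002659), from 10.01 and 65.14 expected counts per group, and it also held in all 12.

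The other calls moved with single libraries, and apart from Hist1h2ap they concerned members at low levels. Hist1h4n (-1.26), Hist1h3i (-1.97), Hist2h3b (-1.26), Hist1h3g (-1.72), Hist1h2bk (-2.17), Hist1h2ak (-1.18), Hist1h3d (-0.84) and Hist1h2ap (-0.45) were called lower on the log2 scale in the main test. Hist1h2ap lost its call without any 1 of the 3 LT-HSC controls or of MPP controls 2 and 3, with adjusted p from 0.07265 to 0.1481. Its log2 fold change was -0.29 without MPP control 3 and -0.63 without MPP control 1. The test called 3 members lower without MPP control 2 and 4 without MPP control 3. It called 7, 6, 9 and 9 lower without LT-HSC control 1, LT-HSC control 2, LT-HSC control 3 and MPP control 1.

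Hist2h2be went the other way. Its level in LT-HSC controls was above that in every MPP control, with a log2 fold change of 0.41 (SE 0.14, edgeR adjusted p = 0.04599). That call was lost when any 1 of the 6 libraries was left out, with adjusted p from 0.06186 to 0.2055. Hist2h2be was the only member called higher, but 4 of the 42 tested lay above 0. Hist1h1c was at 0.44 (SE 0.22, 95% interval -0.05 to 0.93), without a call. Hist1h2bc, the most abundant H2B gene, was at -0.02 (95% interval -0.33 to 0.29). The differences between these genes were not tested.

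**Figure D5:**
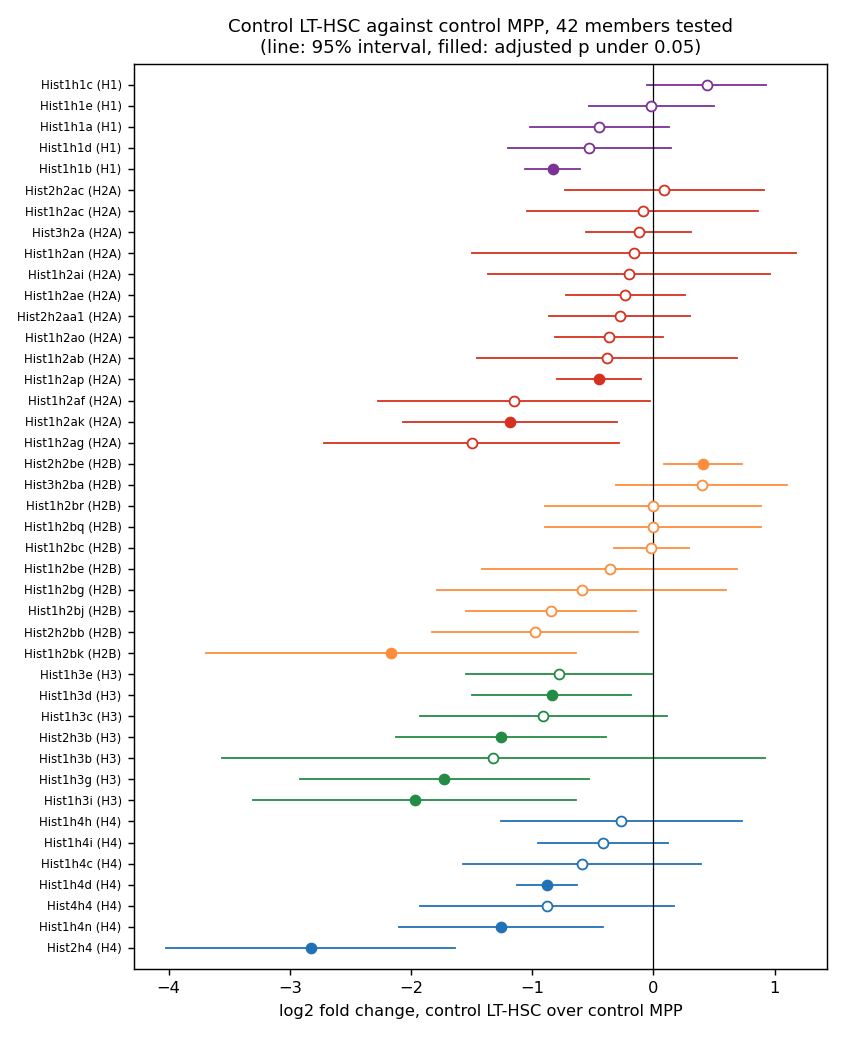
Log2 fold change, control LT-HSC over control MPP, with its 95% interval, for the 42 members tested, ordered by histone type. 38 of the 42 points lie below 0, and filled points (11 lower, Hist2h2be higher) passed the test.

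Histone variants encoded outside the clusters were measured beside Hist2h2be. H1f0, a replacement linker histone known to accumulate in non-dividing cells, had 446, 356 and 401 CPM in the stem cell controls and 144, 182 and 200 in those of MPP. It was higher in LT-HSC, at 1.20 on the log2 scale (SE 0.13, edgeR adjusted p = 9.909e-05). In MPP mutants it was at 85.0, 81.5 and 89.0 CPM, a log2 fold change of -1.06 from controls (SE 0.12, edgeR adjusted p = 6.689e-05). In LT-HSC mutants it was at 360, 171 and 302 CPM, at -0.49 (edgeR adjusted p = 0.5724). Hist2h2be and H1f0 thus had the same signs in all 3 comparisons, of which 2 share the MPP controls and 2 the LT-HSC controls. That likeness of signs was not tested. Of the 11 variants tested in MPP, H2afz (encoding H2A.Z) rose by 0.37 and H2afy (macroH2A1) fell by 0.48 on the log2 scale, and the other 8 did not pass. None of the 11 passed in LT-HSC, where 2 had an unadjusted p under 0.05 and the median was 0.07. In the control comparison H2afz, H2afx, H2afy and H2afy2 were lower in LT-HSC. H2afy, which like H1f0 fell in MPP mutants, thus had the opposite sign to H1f0 there.

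Of all genes tested in MPP, 16.5% were called higher and 18.5% lower, and lists of genes that make, process and deposit histones are given beside these shares. The list for histone mRNA transcription, 3′ end processing and decay had 26 genes tested. In MPP mutants 5 of them rose and 0 fell: Ncbp1 (cap binding, 0.40), Eri1 (exonuclease that trims histone mRNA ends, 0.37), Ccne2 (cyclin E2, 0.37), Lsm1 (decay, 0.39) and Cpsf2. The stem-loop binding protein gene Slbp (0.12, adjusted p = 0.2734) and the histone transcription coactivator gene Npat (0.10, adjusted p = 0.5464) did not pass. Of 21 chaperone genes 4 rose, namely Asf1a (0.64), Supt16 (0.31), Mcm2 (0.23) and Hira (0.46), and 0 fell. Of 15 S phase genes 3 rose, Ccna2 (0.52), Rrm2 (0.29) and Mcm2. The medians of the 3 lists were 0.12, 0.08 and 0.13. In LT-HSC mutants 0 genes of these lists passed, with 2, 1 and 0 at an unadjusted p under 0.05. Between controls, 6 processing, 8 chaperone and 8 S phase genes were lower in LT-HSC and 0 were higher, with medians of -0.11, -0.16 and -0.27. Of all genes tested between controls, 18% were called lower in LT-HSC and 20.5% higher.

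Several values of the libraries moved with these comparisons, and their part in the histone results was not tested. In MPP mutants 9 of 10 erythroid markers rose, their sum being 1354 to 1630 CPM in controls and 3706 to 5528 in mutants. Macrophage markers fell in 8 of 9 (405 to 616 against 50.6 to 134 CPM), hepatoblast markers in 4 of 10 (236 to 508 against 62.1 to 106) and lymphoid markers in 4 of the 4 tested (105 to 160 against 4.07 to 8.85). Granulocyte markers rose in 3 of 5 (2227 to 2674 against 2360 to 3061 CPM). None of these markers was at 0 in all libraries. In controls, the genes of the 2 surface proteins that separate the sorts followed the labels. Slamf1, which encodes CD150, averaged 36.8 CPM in LT-HSC controls and 1.80 in MPP controls, and Cd48 averaged 14.5 and 229. In MPP mutants Cd48 and Flt3 were both called lower, their sum being 666 to 700 CPM in controls and 372 to 466 in mutants. Of 6 stem cell markers 2 were called lower there and 0 higher (1127 to 1248 CPM against 1050 to 1107).

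Between controls, 20.5% of all genes tested were called higher in LT-HSC and 18% lower. Markers were higher in LT-HSC than in MPP for 10 of 10 hepatoblast, 7 of 10 erythroid, 7 of 9 macrophage and 4 of 5 megakaryocyte genes. They were lower for 4 of the 4 lymphoid genes tested and 1 of 5 granulocyte genes. In the same order of lists, their summed CPM in LT-HSC controls was 499.7 to 1643, 2412 to 3172, 640 to 889, 263 to 423, 0.752 to 4.57 and 213 to 1275. For megakaryocyte genes it was 27.0 to 63.0 in MPP controls, and the other MPP ranges are those given above. In LT-HSC mutants the hepatoblast sum was 61.0 to 422 CPM, below all controls, with 0 of 10 genes called and 8 at an unadjusted p under 0.05. The macrophage sum was 39.3 to 648 CPM in those mutants, with 0 of 9 called and 3 at an unadjusted p under 0.05. The summed CPM of Cd48 and Flt3 was 76.1 to 92.3 in LT-HSC mutants against 144 to 165 in their controls, and 1 of these 2 genes was called lower. Of the 10 erythroid genes 1 was called higher in LT-HSC mutants. Of all counts, the ribosomal precursor Rn45s took 0.388% to 0.586% in the LT-HSC libraries. Its share was 0.656% to 0.88% for controls of the MPP and 1.06% to 1.16% for their mutants. The targeted gene, Setdb1, ranged from 66.3 to 141 CPM and was not called in either genotype comparison (adjusted p = 0.6512 and 0.5977). Its summed level does not check the genotype, since the p allele is not defined.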

How the data were processed

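Reads were aligned with STAR and quantified with RSEM on mm10, per the submitters' processing notes. The deposited tables gave an expected count and a TPM per gene and library, with an effective length that was not used here, per the file headers. The members and all gene lists were chosen with earlier results of these data known. Expected counts were rounded, genes with low counts were removed (filterByExpr, minimum count 10, total 15), and edgeR 4.0.16 quasi-likelihood tests (R 4.3.3, TMM scaling) were fitted on all genes, with Benjamini-Hochberg adjustment and a threshold of 0.05. Each comparison used its own libraries, and the interaction all 12. Fitted fold changes used the default prior count of edgeR. A prior count of 2 was added only to the log CPM used to compare how same-numbered libraries deviated. TPM of short transcripts depends strongly on the fragment length assumed. Named genes are the 3 highest per type, called members, testis-type genes, and up to 4 called genes per list. Members named beyond this were chosen after their values were seen. Sequences came from GENCODE M21 and RefSeq (GRCm38.p6), where 67 of 68 members matched by accession and 62 had a promoter window. Replicate libraries differed by more than sampling noise.

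Same-numbered LT-HSC libraries deviated together (r of 0.11, 0.15 and 0.17 over genes). The LT-HSC results above are nevertheless from the fit without pairing, and a fit with the replicate number as a block was an alternative. The fit with the replicate block called 0 members, as did that without it. An unadjusted p under 0.05 in the edgeR test was found for 1 member with the block and 0 without. On simulated counts the test recovered 52 of 100 genes with a 2-fold change in LT-HSC and 81 of 100 in MPP. In the same runs 13 and 10 unchanged genes were called. The changed genes were drawn from all genes above the filter, so these rates are not those of the members, most of which had low counts. Alternatives were other scalings, DESeq2 1.42.0, no filter, a replicate block, a joint fit, only controls with vav-cre (for the comparisons of mutant with control only), and leaving out each library. No protein sequences were used here.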

Additional observations from a re-analysis of the deposited data

How the results depend on the processing

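In LT-HSC, 0 members were called higher and 0 lower in every alternative but 1: with only controls that carry vav-cre, 1 member (Hist1h3b) was called higher. In MPP the count called lower was 1 with DESeq2, with the replicate block and with a joint fit of all 12 libraries, and 0 higher and 0 lower were called with only the vav-cre control, where a lone control is assumed to vary like the other groups. Leaving out each library gave 0 to 5 higher and 1 to 2 lower. Hist1h3d lost its call in 9 of 13 alternatives (adjusted p = 0.07947 with the replicate block), Hist3h2ba in 5 and Hist2h2be in 1. Hist1h2ap in MPP changed sign to 0.0011 without MPP mutant 2 and to 0.095 without MPP control 3, both without a call, over a range of -0.26 to 0.095 with each library left out. Between controls the count called higher was 0 with DESeq2 size factors, the DESeq2 test, no filter, the replicate block, the joint fit and each library left out, and the count called lower was 7 with DESeq2 and with the joint fit and 3 to 9 over the libraries left out. The replicate block called 10 lower there. Same-numbered MPP libraries did not deviate together (r of -0.02, -0.21 and -0.18), nor did controls of the 2 cell types, so the block has no basis there. The H2B sum between controls was -0.03 on the log2 scale and 0.09 with no scaling beyond the library total, an alternative added after the data were seen. Calls over all genes also moved: in LT-HSC from 54 to 260 with DESeq2, 250 in the joint fit and 13 to 102 over the libraries left out, and in MPP from 4337 to 2792 in the joint fit and 125 with only the vav-cre control. Interaction calls over all genes were 50, against 339 with DESeq2, 24 with the replicate block and 1 to 885 over the libraries left out. Upper-quartile scaling moved the MPP split from 2039 higher and 2298 lower to 1627 and 2719. For members with under 100 counts per group, counting error limits the fold changes.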
